A study of Mus musculus with 6 samples.

Results

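Capn11, a calpain known mainly from testis, was counted at 190 and 357 in the 2 Ahnak KO kidney libraries and at 184 in the Ahnak KO ureter library, against 0 and 0 in WT kidney and 8 in WT ureter. Of the 9 other calpains, 0 passed the test between the genotypes in kidney, where 0.0121% of all genes did. In ureter 0 of the 8 that could be compared were past 2-fold, where 4.50% of all genes were higher and 5.75% lower, so these counts do not set the family apart from other genes. Calpains are proteases of the cell interior that are switched on by calcium and that cut chosen proteins at few sites rather than degrade them whole. Capn1 and Capn2 are the classical forms: each joins the small subunit Capns1, and Cast (calpastatin) is their dedicated inhibitor. In urinary tract tissue their known substrates include cytoskeletal and adhesion proteins of muscle and epithelium, such as filamins, spectrins, talin and desmin.

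The family comprised 10 of the 24532 genes in the deposited table: Capn1, Capn2, Capn3, Capn5, Capn6, Capn7, Capn10, Capn11, Capn12 and Capn15. The members were chosen by their symbols, and the family was chosen because Capn11 had stood out between Ahnak KO and WT in these same libraries. The genotype values of Capn11 are therefore given as a description, with no test. A further 6 genes of the calpain system with a row in the table were read beside them: the small subunits Capns1 and Capns2, the inhibitor Cast, and the calpains Capn8, Capn9 and Capn13.

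The libraries were bulk RNA-seq of tissue from mice at postnatal day 1 (PN1). There were 2 WT kidney, 2 Ahnak KO kidney, 1 WT ureter and 1 Ahnak KO ureter libraries. In the Ahnak KO mice exon 5 of Ahnak, which encodes a large scaffold protein, was disrupted, and neither the labels nor the methods give another allele, an agent, the strain or the sex. RNA came from 2 to 4 kidneys or ureters according to the methods, which do not say how many went into a library, so p-values here measure the spread between these libraries. The titles number each ureter library as a further kidney while the tissue label reads ureter, and a protocol label mentions a premolar and PDL cells. Against marker genes the tissue labels held: 7 urothelium markers summed to 6663 and 7515 CPM (counts scaled by library size and TMM factor) in the ureter libraries and to 56.1 to 63.5 CPM in the kidney libraries, while 12 kidney markers summed to 2110 to 2526 CPM in kidney and to 47.3 and 54.5 CPM in ureter.

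The libraries held 36410246 to 66095616 counts, with the Ahnak KO ureter library the smallest, and 3 counts stood for 0.0421 to 0.101 CPM. Ahnak itself was counted in every library. It stood at 183 and 189 CPM in WT kidney and at 139 and 130 CPM in Ahnak KO kidney, and at 727 CPM in WT ureter and 635 CPM in Ahnak KO ureter. In the authors' TPM, a level per transcript length, it was likewise lower in Ahnak KO kidney (20.57 and 22.15, against 27.66 and 24.73 in WT). In ureter the TPM of Ahnak went the other way, at 77.5 in WT and 88.03 in Ahnak KO. Its kidney log2 fold change was -0.47 (SE 0.0961, adjusted p = 1, edgeR's quasi-likelihood test with Benjamini-Hochberg adjustment). Within the genotypes, too, libraries stood apart. The library Ahnak KO kidney 1 had 176348 counts of Xist, the transcript of the inactive X chromosome, and the other 5 libraries had 17 to 36. The beta-globin genes, looked at after their values were seen, split the libraries across genotypes: Hbb-b1 had 48137 counts in WT kidney 2 and 25300 in Ahnak KO ureter, and 6 to 9 counts in the other 4 libraries. Among the 4 libraries low in Hbb-b1, Capn11 had 0 counts in WT kidney and 8 in WT ureter against 190 and 357 in Ahnak KO kidney. The 2 libraries high in it are a WT kidney and an Ahnak KO ureter, so that genotype and tissue cannot be told apart there, and the part of this split in the Capn11 values was not tested. The column names carry a further number, which within a genotype is shared by WT kidney 2 and WT ureter and by Ahnak KO kidney 2 and Ahnak KO ureter. These 2 pairs are meant below by libraries that share a number. Ahnak KO kidney 1 carries the number of the WT pair as well, and no source says whether the number marks an animal.

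The sequence around the active site separates the members by whether they carry the catalytic cysteine. The rest of the active site and the cutting itself were not examined. The catalytic residue of a calpain is a cysteine, encoded by TGT or TGC, and its codon was located in the GENCODE M21 transcripts of GRCm38 by aligning each translated coding sequence to that of Capn11. Of the 10 calpains, 7 had TGC, 2 had TGT and 1, Capn6, had AAG, a codon for lysine. The codon is shown in capitals with 15 bases of spliced coding sequence on each side, 5′ to 3′, for Capn11, for the classical calpains Capn1 and Capn2, for Capn5 and Capn6, which differed between the tissues in opposite directions, and for Capn7, the other member with TGT.
Capn11 (codon at chr17:45643865-45643867, minus strand): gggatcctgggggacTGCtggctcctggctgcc
Capn1 (codon at chr19:6013700-6013702, minus strand): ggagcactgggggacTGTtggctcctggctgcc
Capn2 (codon at chr1:182492863-182492865, minus strand): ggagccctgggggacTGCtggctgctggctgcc
Capn5 (codon at chr7:98151866-98151868, minus strand): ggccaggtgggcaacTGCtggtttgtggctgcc
Capn6 (codon at chrX:143810899-143810901, minus strand): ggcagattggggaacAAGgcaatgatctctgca
Capn7 (codon at chr14:31354110-31354112, plus strand): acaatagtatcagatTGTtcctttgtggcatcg
All 6 codons lie in coding exons. Capn6, the calpain without this cysteine, had the highest TPM of the family, a level per transcript length, in kidney, and Capn1 had the highest in ureter.

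Capn11 (gene number 268958) lies on the minus strand of chromosome 17 from 45630204 to 45659325 (GRCm38, GENCODE M21). Its coding transcript Capn11-201 has 22 exons and 2591 bases. Of the 2542 distinct words of 50 bases in that transcript, 0 occurred in the annotated transcripts of any other gene, so reads of that length from it had no other annotated transcript to match exactly. The same was true of 8 of the 10 calpains, while Capn1 shared 4 words and Capn6 shared 57. No annotated gene overlaps Capn11. In contrast, a stretch of 338 bases of Capn12 overlaps Actn4 and a stretch of 2089 bases of Capn5 overlaps Omp. Long noncoding RNA genes with a row in the deposited table overlap members too. They are 9430060I03Rik with Capn10 (13541 bases), 4931402G19Rik with Capn3 (5775), Gm10814 with Capn1 (3206) and Gm16938 with Capn5 (1753). The sources do not say whether the counting used strand, and the part of these overlaps in the calpain values was not tested.

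On the CPM scale Capn11 stood at 0 and 0 in WT kidney, at 3.14 and 6.01 in Ahnak KO kidney, at 0.155 in WT ureter and at 6.19 in Ahnak KO ureter. The lowest Ahnak KO library was thus far above the highest WT library, and the Ahnak KO ureter was close to the higher of the Ahnak KO kidneys. With the WT kidney libraries set to a limit of 3 counts each (0.0492 CPM in the shallower one), the mean of Capn11 over the 2 Ahnak KO kidney libraries was 93.0-fold above that limit. Ahnak KO kidney 1 alone was nearer to it. In ureter, where each genotype has 1 library, the ratio of Ahnak KO to WT was 39.9, from 184 and 8 counts. Over the 17719 genes with at least 10 counts in a library, 5 genes (0.0282%) were higher in all 3 Ahnak KO than in all 3 WT libraries and by over 2-fold in both tissues, and Capn11 was among them. Capn11 was singled out on these same values and reached 10 counts in the Ahnak KO libraries alone, so its place among the 5 is a description and no support. The other 4 were Gm21975, Il11ra2, Thrsp and Tmem33. A further 3 genes, Evi2b, Pcdhac2 and Zfp973, met the same conditions in the opposite direction.

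**Figure D1:**
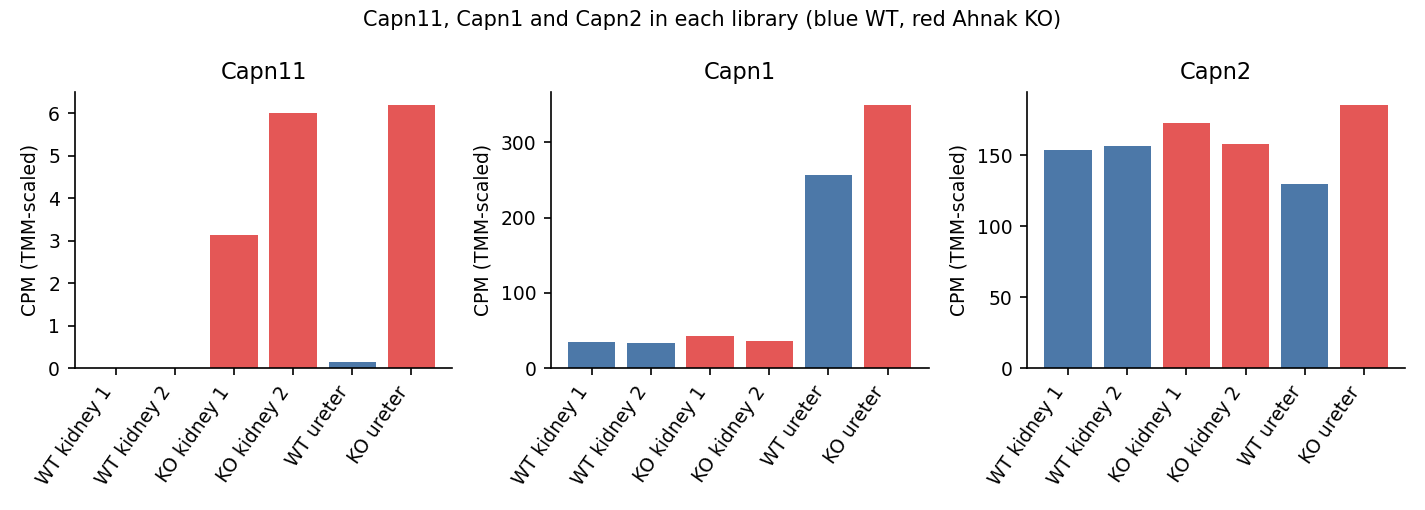
Bars give the CPM (TMM-scaled, linear axis from 0) of Capn11, Capn1 and Capn2 in each of the 6 libraries, blue for WT and red for Ahnak KO. Capn11 is at 3.14 to 6.19 CPM in the Ahnak KO libraries and at 0 to 0.155 CPM in the WT libraries, whereas Capn1 is higher in ureter than in kidney, and Capn2 lies between 129 and 185 CPM with its 3 Ahnak KO libraries at 158 CPM or more and its 3 WT libraries at 157 CPM or less.

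Even in the Ahnak KO libraries Capn11 was a minor calpain. Per length, in the authors' TPM (an abundance corrected for transcript length and scaled to a fixed sum), it stood at 2.62 and 4.83 in Ahnak KO kidney and at 3.67 in Ahnak KO ureter. That was 0.565%, 1.05% and 0.756% of the summed TPM of the 10 calpains in those libraries. The sum itself was 442 and 489 TPM in WT kidney, 459 and 464 in Ahnak KO kidney, 447 in WT ureter and 485 in Ahnak KO ureter, so the ranges of the genotypes overlapped.

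Because Capn11 is known from testis, markers of the gonad were read beside it. Of 9 gonad and germ cell markers, Tex101 and Fshr were at 0 in every library, and Mael had 2 counts in WT kidney 1 and 0 elsewhere. Ddx4, a helicase of germ cells, had 81 and 68 counts in WT kidney, 14 and 86 in Ahnak KO kidney and 0 in both ureter libraries. The 9 markers summed to 3.30 and 3.93 CPM in WT kidney, 1.95 and 5 CPM in Ahnak KO kidney, 4.60 CPM in WT ureter and 3.26 CPM in Ahnak KO ureter. In ureter 7 of the 9 were at 0 and the sum came from Dhh and Insl3, so the sum does not measure germ cells there, and the part of gonad tissue in the Capn11 values was not tested. The 4 adrenal cortex markers summed to 1.95 to 2.91 CPM in kidney and to 3.77 and 5.68 CPM in ureter.

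The classical calpains were compared next in kidney, in the fit of all 16481 genes that passed the filter on low counts. In that fit 2 genes (0.0121%) passed an adjusted p of 0.05, and of the 9 calpains other than Capn11, all of which passed the filter, 0 did. All 9 had an adjusted p of 1, and 0 of 9 had an unadjusted p under 0.05, compared with 227 of all genes tested. The Wald test of DESeq2 and limma on log2(FPKM + 1) likewise called 0 of the 9. Capn1 stood at 35.3 and 33.3 CPM in WT kidney and at 42.6 and 35.6 CPM in Ahnak KO kidney. Both Ahnak KO values were above both WT values by a small margin, with a log2 fold change of 0.19 (SE 0.14). Capn2 stood at 153 and 157 CPM in WT and at 173 and 158 CPM in Ahnak KO kidney, with a log2 fold change of 0.09 (SE 0.0987). Its genotypes likewise did not overlap, by less than 1 CPM. With the ureter libraries included, Capn2 was higher in all 3 Ahnak KO than in all 3 WT libraries on the CPM scale, as Capn11 was, and so were 342 of the 17719 genes with at least 10 counts in a library (1.93%). On the TPM scale the kidney genotypes of Capn2 overlapped. None of the other 8 calpains lay above or below WT in this way on the CPM scale, where 2.29% of genes were lower in all 3 Ahnak KO libraries. Within each tissue, CPM values of Capn1 lay above WT in the Ahnak KO libraries, and those of Capn3 and Capn10 lay below. On the TPM scale the kidney genotypes of Capn1 overlapped, at 24.63 and 23.19 in WT and 29.69 and 23.88 in Ahnak KO. The share of all genes that separate within both tissues was not computed, so this does not set these members apart. Capns1, the subunit shared by Capn1 and Capn2, stood at 263 and 219 CPM in WT and 258 and 266 CPM in Ahnak KO kidney. The inhibitor Cast stood at 45.9 and 46.5 CPM in WT and 53.7 and 38.5 CPM in Ahnak KO kidney. For both of these genes the genotypes overlapped.

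Among the other calpains the kidney values of the genotypes were also close. Capn3, the calpain of skeletal muscle, stood at 1.57 and 1.61 CPM in WT and at 0.727 and 1.55 CPM in Ahnak KO kidney. One Ahnak KO library was thus low and the other near WT, and the log2 fold change was -0.48 (SE 0.52). Capn10, a ubiquitous calpain studied in relation to glucose metabolism, stood at 30.9 and 31.4 CPM in WT and at 22.4 and 30.3 CPM in Ahnak KO kidney, again with the lower value in Ahnak KO kidney 1. Its log2 fold change was -0.24 (SE 0.18). Capn5, which lacks the calcium-binding EF hands of the classical forms, stood at 30.8 and 30.3 CPM in WT and at 38.7 and 25.2 CPM in Ahnak KO kidney, so that its Ahnak KO libraries lay on either side of WT. Capn6 stood at 381 and 317 CPM in WT and 318 and 359 CPM in Ahnak KO kidney. Capn7, a calpain with microtubule-interacting and transport domains, stood at 108 and 96.2 CPM in WT and 108 and 104 CPM in Ahnak KO kidney. Capn15, with zinc fingers at its amino end, stood at 57.7 and 55 CPM in WT and 51.5 and 56.3 CPM in Ahnak KO kidney. For Capn6, Capn7 and Capn15 the genotypes overlapped and the log2 fold changes were -0.04 (SE 0.13), 0.06 (SE 0.11) and -0.06 (SE 0.12). Capn12, known from the hair follicle, had 41 and 53 counts in WT and 19 and 42 in Ahnak KO kidney, with a log2 fold change of -0.49 (SE 0.71). When 1 kidney library was left out, the value of Capn12 ran from -1.20 without Ahnak KO kidney 2 to -0.02 without Ahnak KO kidney 1, that of Capn3 from -1.13 to -0.03 and that of Capn10 from -0.48 to -0.03 for the same 2 libraries.

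The median log2 fold change of the 9 calpains in kidney was -0.0401, and that of all genes tested was -0.0041. Both Ahnak KO libraries were above both WT libraries for 2 of the 9 calpains (Capn1 and Capn2) and below both for another 2 (Capn3 and Capn10), and over all genes tested the shares were 12.8% above and 13.5% below. In the calpain system 0 of the 5 genes tested passed in kidney with edgeR, DESeq2 or limma, and 0 had an unadjusted p under 0.05. The largest differences there were in genes with few counts: Capn13 had 30 and 13 counts in WT and 0 and 4 in Ahnak KO kidney (unadjusted p = 0.06), and Capns2 had 22 and 31 counts in WT and 8 and 7 in Ahnak KO kidney (unadjusted p = 0.0932, both from edgeR's quasi-likelihood test).

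In ureter, where 1 library of each genotype allows no test, the log2 ratio of CPM + 0.5 was taken for 16117 genes. Past 2-fold, 4.50% of genes were higher and 5.75% were lower in the Ahnak KO library. Of the 9 other calpains 8 could be compared, 0 were past 2-fold in either direction, and 4 had a ratio above 0 and 4 below it. Capn12 was listed at 0 in both ureter libraries. The median log2 ratio of the 8 was 0.09, and that of all genes was -0.02. Capn3 came closest to 2-fold, with 66 counts in WT and 13 in Ahnak KO ureter and a log2 ratio of -0.88. Its count ratio of 0.341 had a counting interval of 0.173 to 0.624, and with a pseudocount of 0.1 it passed 2-fold. Markers of striated muscle, where Capn3 is known to be expressed, were lower in the same library: the 10 markers summed to 419 CPM in WT ureter and to 176 CPM in Ahnak KO ureter, compared with 9.31 to 9.87 CPM in the kidney libraries, and their part in the Capn3 value was not tested.

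The classical calpains and their partners Capns1 and Cast all had a ratio above 0 in ureter, as did 7844 of the 16117 genes compared. Capn1 stood at 257 CPM in WT and 349 CPM in Ahnak KO ureter, a log2 ratio of 0.44. Capn2 stood at 129 CPM in WT and 185 CPM in Ahnak KO ureter, a log2 ratio of 0.52. Scaled by library size alone, the log2 ratios of Capn1 and Capn2 were smaller, at 0.2459 and 0.3190. Capns1 had a log2 ratio of 0.40 and Cast of 0.69. On the other side, Capn10 stood at 25.9 CPM in WT and 16.5 CPM in Ahnak KO ureter, and Capn15 at 79.9 and 55.3 CPM, with log2 ratios of -0.63 and -0.52. Skin markers differed between these libraries too, with 5 markers summing to 202 CPM in WT and 539 CPM in Ahnak KO ureter. Krt14, a member of that list, went the other way, at 50.35 CPM in WT and 41.93 CPM in Ahnak KO ureter. The part of the skin markers in these ratios was not tested. With 1 library per genotype a difference between animals and a difference between genotypes cannot be told apart.

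**Figure D2:**
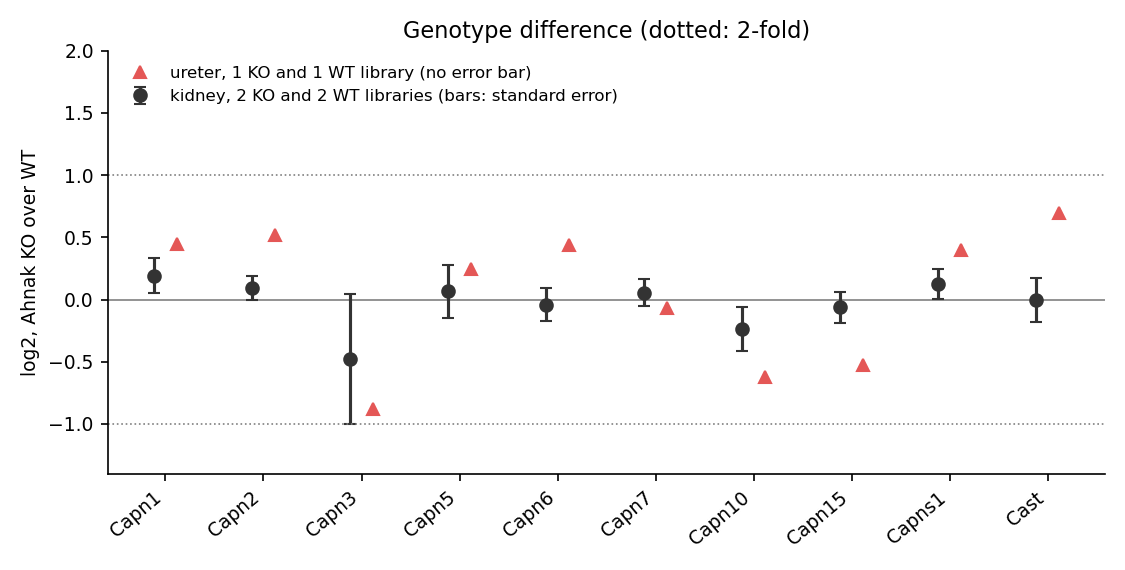
Points give the log2 difference of Ahnak KO over WT for 8 calpains, Capns1 and Cast: circles are the kidney fold changes from edgeR with bars of 1 standard error (2 libraries per genotype), and triangles are the ureter ratios of 1 library each, without an error. Every point lies inside the dotted 2-fold lines, and Capn3 in ureter is the nearest to them at -0.88.

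Whether the genotype difference itself changed from kidney to ureter was tested in a fit of 16873 genes over the 6 libraries, in which the lone ureter libraries were assumed to vary like the kidney libraries. In that fit 19 genes (0.113%) passed, and 0 of the 9 calpains, 0 of 6 system genes and 0 of 17 substrates and partners did. At an unadjusted p under 0.05 in edgeR's test these were 0, 2 and 4 genes, beside 2156 of the 16873 genes tested. DESeq2 called 0, 0 and 1, the 1 being Ezr. Capn2 came closest among the 9, with a difference of 0.43 on the log2 scale (SE 0.18, unadjusted p = 0.0587, adjusted p = 0.41, edgeR's quasi-likelihood test).

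The contrast of kidney with ureter does not involve the genotype values that singled out Capn11. Of the 9 calpains, 2 were higher in ureter and 3 were lower at an adjusted p under 0.05 (edgeR's quasi-likelihood test with genotype as a further term), and over the 16873 genes tested 21.4% were higher and 23.7% were lower. Counts of 2 and 3 of 9 lie near those shares, so that the result is which members differed and not how many. The median of the 9 was -0.29 and that of all genes -0.08 on the log2 scale. Here, as in any bulk tissue, fewer cells of a type and less RNA per cell cannot be told apart.

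Capn1 and Capn5 were the members of the 9 that were higher in ureter. Capn1 stood at 33.3 to 42.6 CPM in the 4 kidney libraries and at 257 and 349 CPM in the ureter libraries, a log2 fold change of 3.03 (SE 0.11, adjusted p = 1.4e-05). Capn5 stood at 25.2 to 38.7 CPM in kidney and at 237 and 281 CPM in ureter, a log2 fold change of 3.05 (SE 0.17, adjusted p = 5.08e-05). For both genes the ureter and kidney ranges lay far apart. The gene Omp, which overlaps Capn5, stood at 0.394 to 0.829 CPM in kidney and at 7.95 and 4.98 CPM in ureter, far below Capn5 itself.

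Capn6 and Capn12 were lower in ureter. Capn6, known from embryonic muscle and placenta, stood at 317 to 381 CPM in kidney and at 105 and 142 CPM in ureter, a log2 fold change of -1.49 (SE 0.16, adjusted p = 0.000704). Capn12 had 19 to 53 counts in the kidney libraries and 0 in both ureter libraries. Its mean over the kidney libraries was 6.11-fold above a limit of 3 counts in the shallower ureter library (adjusted p = 0.013, edgeR's quasi-likelihood test). Capn12 passed the filter on low counts through the kidney libraries alone, so its call could only be lower in ureter. Its neighbour Actn4, which shares 338 bases with it, was higher in ureter, at 600 ± 150 CPM (SD, n = 2) against 359 ± 32.2 CPM in kidney (SD, n = 4). Without WT kidney 2 the adjusted p of Capn12 was 0.0502, in the Ahnak KO libraries alone it was 0.087, and in the 4 libraries whose columns share a number, compared within those pairs, it was 0.1.

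The remaining members differed less between the tissues. Capn7 stood at 96.2 to 108 CPM in kidney and at 87.1 and 82.9 CPM in ureter, and its log2 fold change of -0.29 (SE 0.0970) had an adjusted p of 0.0479. Leaving out any 1 of the 6 libraries took that call past 0.05, with adjusted p-values from 0.0554 to 0.267, and within the pairs of libraries that share a column number it was 0.204. Capn2 stood at 153 to 173 CPM in kidney and at 129 and 185 CPM in ureter, with the ureter libraries on either side of the kidney range (adjusted p = 0.801). Capn3, Capn10 and Capn15 also missed the threshold, with log2 fold changes of -0.78 (SE 0.59), -0.46 (SE 0.18) and 0.28 (SE 0.13). Scaled by library size alone, which moved the median of all genes from -0.08 to -0.36, Capn2 and Capn10 passed as lower in ureter (adjusted p = 0.0377 and 0.0247), and they also did with limma on log2(FPKM + 1) (adjusted p = 0.0237 and 0.0206). Capn15 passed as higher in ureter in the WT libraries alone (adjusted p = 0.0389) and without the Ahnak KO ureter library (adjusted p = 0.0449).

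**Figure D3:**
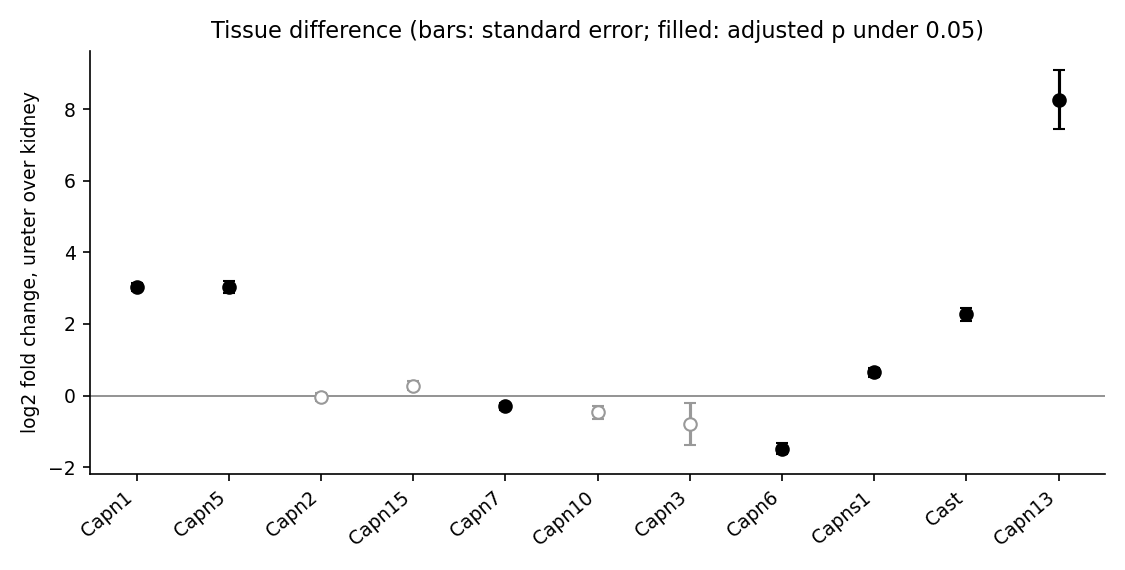
Points give the log2 fold change of ureter over kidney from edgeR with bars of 1 standard error, for 8 calpains, Capns1, Cast and Capn13. Filled points passed an adjusted p of 0.05 (2 ureter and 4 kidney libraries), with Capn1 at 3.03 and Capn5 at 3.05 above the line of no change and Capn6 at -1.49 below it.

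Most other genes of the calpain system were higher in ureter. Of the 6 genes, 4 were higher in ureter and 0 were lower, beside 21.4% and 23.7% of all genes. DESeq2 called the same 4 genes, and limma called 3 of them, Capn8 being the exception. Capn13 had 0 to 30 counts in the kidney libraries and 1743 and 2005 in the ureter libraries, a log2 fold change of 8.27 (SE 0.83, adjusted p = 0.000512). Cast stood at 38.5 to 53.7 CPM in kidney and at 173 and 280 CPM in ureter, a log2 fold change of 2.27 (SE 0.19, adjusted p = 0.000242). Capns1 was higher by 0.65 (SE 0.12, adjusted p = 0.00577) on the log2 scale. Capn8, known from the stomach, had 0 counts in all 4 kidney libraries and 41 and 7 in the ureter libraries. Its mean over the ureter libraries was 10.2-fold above a limit of 3 counts in a kidney library (adjusted p = 0.0349, edgeR's quasi-likelihood test). Capn8 passed the filter on low counts through the ureter libraries alone, so its call, 1 of the 4, could only be higher in ureter. Capn9, also known from the digestive tract, and Capns2 had at most 31 counts in a library and did not pass.

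Compared per length, the order of the calpains changed between the tissues. In kidney Capn6 was highest at 206 ± 18.6 TPM (SD, n = 4), followed by Capn2 at 107 ± 6.46 and Capn7 at 62.5 ± 3.66 TPM, and the ranges of these 3 did not overlap. Capn1, Capn15, Capn10 and Capn5 followed between 25.4 and 14.9 TPM, and each overlapped its neighbour in the order. Capn11, Capn3 and Capn12 were the lowest members, at 1.86, 0.915 and 0.460 TPM on average. In ureter Capn1 was highest at 159 ± 19.7 TPM (SD, n = 2), followed by Capn5 at 95.7 ± 2.30, Capn2 at 80.0 ± 12.7, Capn6 at 56.4 ± 6.90 and Capn7 at 39.2 ± 5.01 TPM. Those 5 members did not overlap in their ranges. Capn6 made up 41.5% to 47.4% of the summed calpain TPM in kidney and 11.5% and 12.6% in ureter, while Capn1 made up 5.04% to 6.39% in kidney and 32.4% and 35.6% in ureter. The small subunit Capns1 was above every calpain in both tissues, at 348 ± 27.9 TPM in kidney and 417 ± 42.7 TPM in ureter. The inhibitor Cast was level with Capn1 in kidney, at 25.4 ± 3.93 TPM, and below it in ureter, at 93.7 ± 23.3 TPM.

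**Figure D4:**
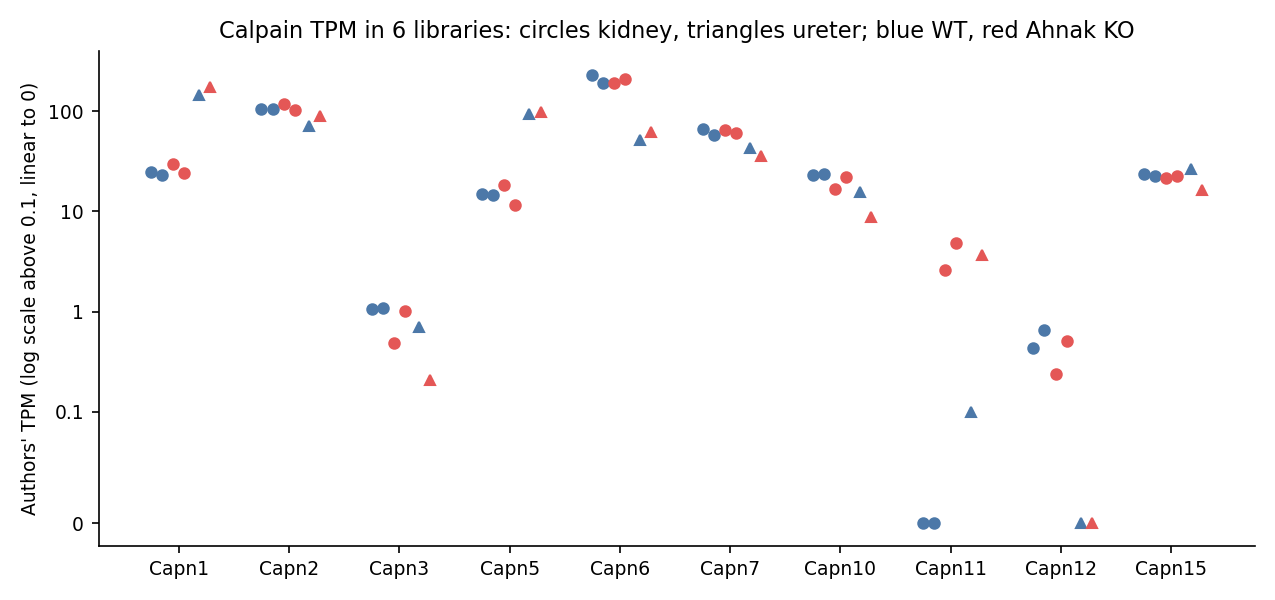
Points give the authors' TPM of the 10 calpains in each library on an axis that is logarithmic above 0.1 and linear below it, with circles for kidney, triangles for ureter, blue for WT and red for Ahnak KO. Capn11 has its red points at 2.62 to 4.83 TPM and its blue points at 0 to 0.101 TPM. The red points of Capn3, Capn10 and Capn15 lie below their blue points within each tissue by a smaller distance. The share of all genes that split in this way was not computed.

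Capn11 was also compared with the other genes by the shape of its pattern over the 6 libraries, as the root mean square difference of log2(CPM + 0.5) after each gene was centred on its mean. The 5 genes most like it among 17719 were Thrsp at a difference of 0.854, Il11ra2 at 0.873, Gm21975 at 0.882, Pcdhga8 at 0.997 and Setdb2-phf11c at 1.08. They lie on chromosomes 7, 4, 11, 18 and 14. Thrsp had 26 and 14 counts in WT kidney, 40 and 160 in Ahnak KO kidney, 6 in WT ureter and 188 in Ahnak KO ureter. Il11ra2 had 0 counts in all 3 WT libraries, 21 and 124 in Ahnak KO kidney and 37 in Ahnak KO ureter. Setdb2-phf11c departed from the pattern in WT kidney 2, where it had 132 counts against 0 in WT kidney 1. No calpain came near this set. The nearest of the family was Capn2, at rank 1561 with a difference of 1.58, and its subunit Capns1 was at rank 1299. The other 8 calpains were at ranks 6957 to 16100, and Capn13 was at 17571. The difference depends on expression level, since a gene with few counts is held near a constant by the pseudocount. Any gene that changes little over the 6 libraries lies at a difference set mostly by the spread of Capn11 itself. The ranks of Capn2 and Capns1 therefore do not show a likeness to Capn11.

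The genes around Capn11 did not share its values. Tmem63b, an ion channel gene on the same strand, ends 845 bases before the start of Capn11. It had 4087 and 3067 counts in WT kidney, 3760 and 3059 in Ahnak KO kidney, 5502 in WT ureter and 3515 in Ahnak KO ureter, and its genotypes overlapped in kidney (log2 fold change 0.08, SE 0.15, adjusted p = 1, edgeR's quasi-likelihood test). On the other side, 28101 bases past the end of Capn11, lies Mymx, a muscle fusion gene listed under the symbol Gm7325. It had 129 and 276 counts in WT kidney, 260 and 122 in Ahnak KO kidney and 0 in both ureter libraries. Within 250 kb of Capn11 the table held 15 genes, Capn11 included, and in kidney the log2 ratios of CPM + 0.5 of the other 14 lay between -0.19 and 0.29. In ureter Aars2 and Nfkbie, chosen after their values were seen, had log2 ratios of -1.0 and -1.23, and the others lay between -0.36 and 0.32. Capn15 and Capn13 are on chromosome 17 as well and did not follow Capn11. Capn1 is on chromosome 19 with Ahnak, 2973386 bases away from it.

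**Figure D5:**
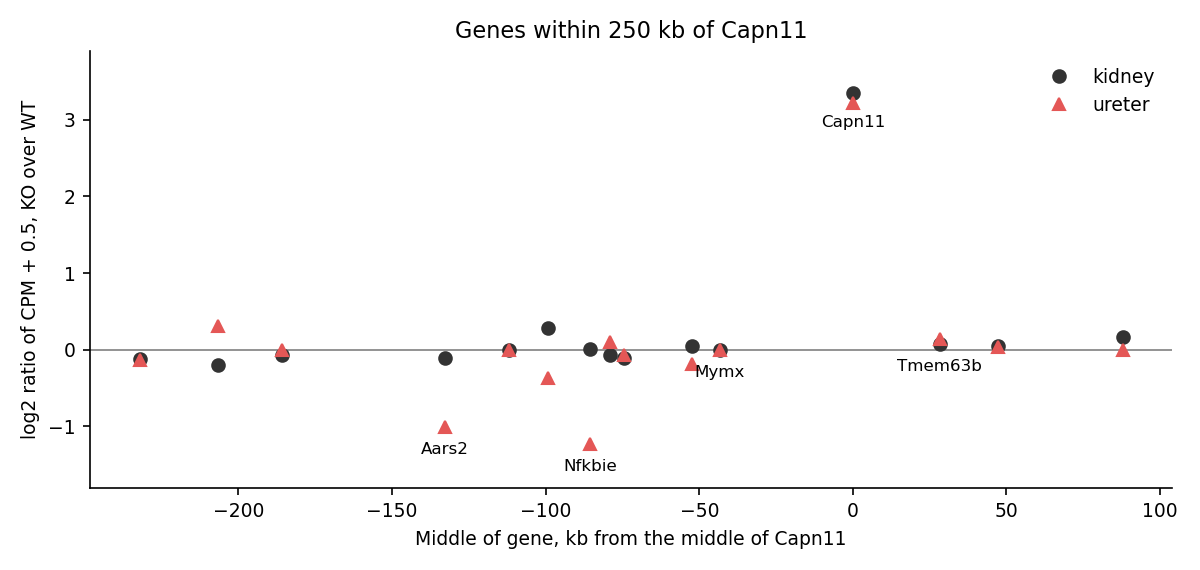
Points give the log2 ratio of CPM + 0.5, Ahnak KO over WT, against distance from the middle of Capn11 in kb, for the 15 genes within 250 kb (circles kidney, triangles ureter). Capn11 stands alone at 3.34 in kidney, a value set by the pseudocount because WT kidney is at 0, and at 3.22 in ureter.

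The promoters of the family, read as 250 bases before to 50 after each RefSeq start (GRCm38.p6), were available for 9 of the 10 members, Capn5 being the exception. That of Capn11 held 3 CpG dinucleotides in its 300 bases, fewer than the median of 7 over 32851 promoters, and 23.3% of promoters held fewer. Capn2, Capn7 and Capn10 held 27, 25 and 21, Capn12 held 9 and Capn6 held 5. The members with more than 1 listed start were Capn1 (14 and 15), Capn3 (6 and 4) and Capn15 (3, 25 and 22). A promoter of Capn15 thus held as few as that of Capn11. No measurement here bears on these promoters directly.

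The known substrates and partners of calpains were followed as a list of 17 genes. In kidney 0 of the 17 passed between the genotypes with edgeR and 0 with limma, and 1 passed with the Wald test of DESeq2, Ahnak itself. Ahnak was also the 1 member with an unadjusted p under 0.05 in edgeR. In ureter 2 were past 2-fold higher in the Ahnak KO library, Ezr at a log2 ratio of 1.14 and S100a10 at 1.04, and 1 was past 2-fold lower, Ttn at -2.19, beside 4.50% and 5.75% of all genes. The 2 higher calls depended on the scaling. In the authors' TPM, Ezr stood at 141.9 in WT and 273.5 in Ahnak KO ureter and S100a10 at 618.6 and 1116, both short of 2-fold. Ttn stayed past it, at 0.04547 and 0.002023 TPM. Ezr encodes ezrin, which links the membrane to actin, and S100a10 a partner of annexin A2. Ttn encodes the giant sarcomere protein titin, and the striated muscle markers given above were lower in the same library.

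Between the tissues 9 of the 17 were higher in ureter and 2 were lower, beside 21.4% and 23.7% of all genes, with a median log2 fold change of 0.63 against -0.08 over all genes. Higher were the filamins Flna at 0.72 and Flnc at 1.55, the spectrin Sptbn1 at 0.62, vinculin (Vcl) at 0.82, the intermediate filament genes Des at 2.35 and Vim at 1.58, Ahnak at 2.10, Anxa2 at 1.19 and S100a10 at 0.74 on the log2 scale. Lower were Dysf, which encodes the membrane repair protein dysferlin, at -1.50, and the focal adhesion kinase gene Ptk2 at -0.30. The other spectrin of the list, Sptan1, at -0.23, and the talin gene Tln1, at -0.03, did not pass (adjusted p = 0.174 and 0.863, edgeR's quasi-likelihood test). Of the 17 genes, 12 had a log2 fold change above 0 and 5 below it. Smooth muscle markers were higher in ureter as well: the 6 markers, one of which is Des, summed to 583 to 684 CPM in kidney and to 6994 and 6365 CPM in ureter, and their part in the tissue differences was not tested.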

How the data were processed

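Bulk RNA-seq of PN1 kidney and ureter was analysed from the authors' gene table. Per the file headers, it holds FPKM, TPM and a count for each library. The deposited count is an expected count, estimated by the authors' quantifier, written as a whole number and free of normalization, and an entry of 0 is therefore an estimate. FPKM and TPM were normalized by the authors for depth and length. The methods name a TruSeq Stranded mRNA kit, Cutadapt, STAR, Cufflinks and GRCm39, whereas the submitters' processing notes name Trimmomatic 0.38, HISAT2 2.1.0, StringTie 1.3.4b and mm10 (GRCm38), and which made the table was not settled. Whether strand was used in counting is not given in the sources used here. The count test, designed with raw counts in mind, took these estimates as input.

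The quasi-likelihood test of edgeR 4.0.16 in R 4.3.3 was used after filterByExpr and TMM scaling, with Benjamini-Hochberg adjustment over all genes tested and a threshold of 0.05: kidney genotype over 4 libraries, tissue over 6 libraries with genotype as a term, and genotype by tissue over 4 groups. Standard errors are approximate: each is the size of the log2 fold change over the root of its F statistic. CPM was scaled by TMM over the 6 libraries. The ureter libraries were compared without a test, as the log2 ratio of CPM + 0.5 with their own TMM factors, where the higher library had 10 counts or more. Intervals and limits (3 counts in a library) cover counting error only. The scripts were tested on simulated data. Alternatives used DESeq2 1.42.0, limma 3.58.1 on log2(FPKM + 1) or log2(FPKM + 0.1), other scalings and filters, WT or Ahnak KO libraries only, and leaving out each library. A crossed pairing of replicate numbers, and a tissue fit within libraries that share a column number, were added after the data were examined.

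Members, lists, markers and the rule for naming genes were chosen with earlier results of these data known. The rule covered the 10 calpains, the calpain system, members of the 17 substrates and partners that passed, Ahnak, genes next to Capn11 or overlapping a calpain, and the 5 genes with a pattern most like Capn11. Sptan1 and Tln1, which did not pass, were named outside the rule. Marker lists covered kidney, urothelium, smooth muscle, striated muscle, gonad, skin and adrenal cortex. Capn14 was not analysed here.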

Additional observations from a re-analysis of the deposited data

Results flagged for a closer look

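For 2 genes of the calpain system, both Ahnak KO kidney libraries lay below both WT kidney libraries while the ureter ratio went the other way. Capns2, a second small subunit gene, had a ureter log2 ratio of 0.52 (8 counts in WT and 14 in Ahnak KO ureter) against a kidney log2 fold change of -1.69. Capn13 had a ureter log2 ratio of 0.98 (1743 counts in WT and 2005 in Ahnak KO ureter, the smaller library) against a kidney log2 fold change of -3.17, which rests on at most 30 counts in a library. The test of the difference between tissues did not pass for either, with an adjusted p of 0.458 for Capns2 and 0.213 for Capn13 (edgeR's quasi-likelihood test), and the ureter side has 1 library per genotype.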

How the results depend on the processing

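In kidney, 0 of the 9 calpains passed under every alternative run. The number of genes that passed between the genotypes was 2, and it was 44 with the Wald test of DESeq2, 1 with at least 10 counts in every library, 0 with all 6 libraries in one fit, 0 with limma on either FPKM scale, and 3 to 87 when 1 library was left out. No source says that the replicate numbers mark a shared animal or batch. With the replicate number as a block 0 genes passed and with the crossed pairing 1 did, and over 16481 genes the replicate differences of the genotypes correlated at -0.193. With 1 kidney library left out, the direction turned for Capn5 (-0.2713 to 0.3372), Capn6 (-0.1695 to 0.0986, with 0.0476 without Ahnak KO kidney replicate 1), Capn7 (-0.0293 to 0.1434) and Capn15 (-0.1359 to 0.0049).

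Between the tissues 5 calpains passed, 3 did in the Ahnak KO libraries alone, 3 to 5 did when 1 library was left out, and 7 did with library size alone and 7 with limma. In the 4 libraries whose columns share a number, with each kidney and ureter pair as a block (added after the data were examined), 3 calpains and 4841 genes passed, against 7595 genes in all 6 libraries, with fewer libraries behind the test. Capn15 turned with library size alone (-0.0059) and with limma (-0.0202), and Capn2 turned in the Ahnak KO libraries alone (0.163) and, with 1 library left out, ran from -0.2583 to 0.162, above 0 without WT ureter replicate 1. Capn1, Capn5 and Capn6 kept their direction and their calls under all alternatives run. The number of genes that passed the genotype by tissue test was 19, 484 with DESeq2, and 4 to 258 when 1 kidney library was left out, and 0 of the 9 calpains passed in each. In ureter 1651 genes were past 2-fold, and 2771 were with a pseudocount of 0.1, with which 1 calpain, Capn3, was past it. Library size alone moved the median of all genes in ureter from -0.02 to -0.20, and kept the sign of all 8 calpain ratios.

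Depth limits Capn12, Capn3 and the low genes of the system, and 2 or 1 libraries per group limit every genotype value.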
